A study of Homo sapiens with 6 samples.

Results

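Potassium channel genes were examined in the DU145 line of human prostate cancer cells after treatment with CCS1477 (inobrodib), an inhibitor of the bromodomains of the acetyltransferases p300 and CBP. Poly-A RNA was sequenced from 3 libraries of cells given 1 µM CCS1477 for 24 h and 3 libraries of cells given the solvent DMSO for 24 h. The labels give both groups the genotype WT, name no batch and do not say whether the replicates were separate cultures. The p-values therefore cover the spread among these libraries alone, possibly technical, and the series holds only this cell line. The genes were those whose symbol is KCN, further letters and a final number, with at least 30 estimated counts summed over the 6 libraries. Of the 95 genes in the files with such a symbol, 38 met this minimum, 29 had fewer counts and 28 had a summed count of 0, in a series of 60623 gene IDs of which 25155 had a count. The members nearest to the minimum were KCNE3 with 33 counts and KCNS1 with 34, and the nearest genes outside it were KCNJ10 with 29 and KCNK7 with 27. The rule used the counts of both groups together and no difference between them.

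Potassium channels let potassium leave the cell down its gradient, which holds the membrane potential negative and contributes to control of cell volume and secretion in epithelia. Most KCN genes encode a pore-forming subunit, and channels are assembled from several such subunits. The families differ in what opens them: voltage, intracellular calcium or sodium, pH and lipids, or the direction of the current. Auxiliary subunits form no pore and change the gating or the traffic of the channel they bind. Of the 38 members, 16 of the 40 genes of their class in the files were voltage-gated pore subunits. Calcium- and sodium-activated channels gave 4 members of 8, tandem-pore (K2P) channels 6 of 15, inward rectifiers 3 of 16 and auxiliary subunits 9 of 16.

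Library totals ran from 8691382 to 9412867 counts in CCS1477 and from 8286880 to 11956734 counts in DMSO, and the limit that a count of 0 allows, set at 3 counts, lay at 0.251 to 0.362 CPM (counts scaled to library size). It covers counting error only. The epithelial markers KRT8, KRT18, KRT19, EPCAM and CDH1 were all detected and summed to 2127 to 2259 TPM in CCS1477 and 2191 to 2492 TPM in DMSO. CDH1 alone had 29.4 to 33.7 TPM in CCS1477 and 49.3 to 79.5 TPM in DMSO. Of the prostate luminal markers KLK3 and TMPRSS2, KLK3 had 0 counts in every library and TMPRSS2 had at most 0.19 TPM in CCS1477 and 0.12 TPM in DMSO. Of 8 markers of other cell types, PTPRC, PECAM1 and COL3A1 had 0 counts in every library, and the list summed to 5.56 to 7.25 TPM in CCS1477 and 7.07 to 12.7 TPM in DMSO, most of it COL1A1.

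With CCS1477, more potassium channel genes were lower than higher. Of the 38 members, 31 had enough counts to be tested, 8 were lower at an adjusted p of at most 0.05 by edgeR's quasi-likelihood test, 1 was higher and 22 did not pass. The background in the same fit was 10.7% of 14928 genes lower and 7.23% higher, or 17.9% in either direction. Lower by more than 2-fold were 6 members, among them KCNQ3, KCNMA1, KCNK15, KCNN4 and KCNH1, against a background of 3.07% of the genes tested. The median log2 fold change of the 31 members was -0.65, with a range of -2.85 to 1.24, and that of all genes tested was -0.0030. Of all calls, 59.7% were lower, and with library size as the only scaling 48.3% were; with that scaling the members gave the same 8 lower calls (background 9.12%) and 2 higher ones, of which KCNT2 was the added one (background 9.75%). On the TPM scale with limma, 4 of the 8 lower calls (KCNQ3, KCNMA1, KCNK15 and KCNN4) and 0 higher calls passed with either pseudocount, where the background was 2.86% lower and 1.96% higher on log2(TPM + 1) and 2.75% lower and 1.88% higher on log2(TPM + 0.1). In CPM the groups did not overlap for 21 members, 15 of them lower and 6 higher, against a background of 35.9%, or 19.3% lower and 16.5% higher. In bulk RNA, less RNA per cell cannot be told apart from fewer cells that hold it.

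The filter on low counts affects these numbers, because a gene can enter through 1 group only. The level it needs was 1.10 CPM in 3 libraries. Reaching it in all 3 libraries of 1 group but not of the other were 7 members, among them KCNF1, KCNH1, KCNH3, KCNIP2, KCNMB4 and KCNT2, and without them 24 members were tested, of which 6 were lower and 1 was higher; the same split over all genes left 13971, of which 10.4% were lower and 7.39% higher. The 7 members not tested (KCNAB1, KCNE3, KCNIP4, KCNJ8, KCNK13, KCNQ1 and KCNS1) had group means of 0.342 to 1.31 CPM, and the CCS1477 mean was below the DMSO mean for 4 of them. Of the 16 tested members with a mean of at least 5 CPM over the 6 libraries, 6 were lower and 1 was higher, against 11.5% lower and 8.19% higher of the 11938 genes at that level.

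**Figure D1:**
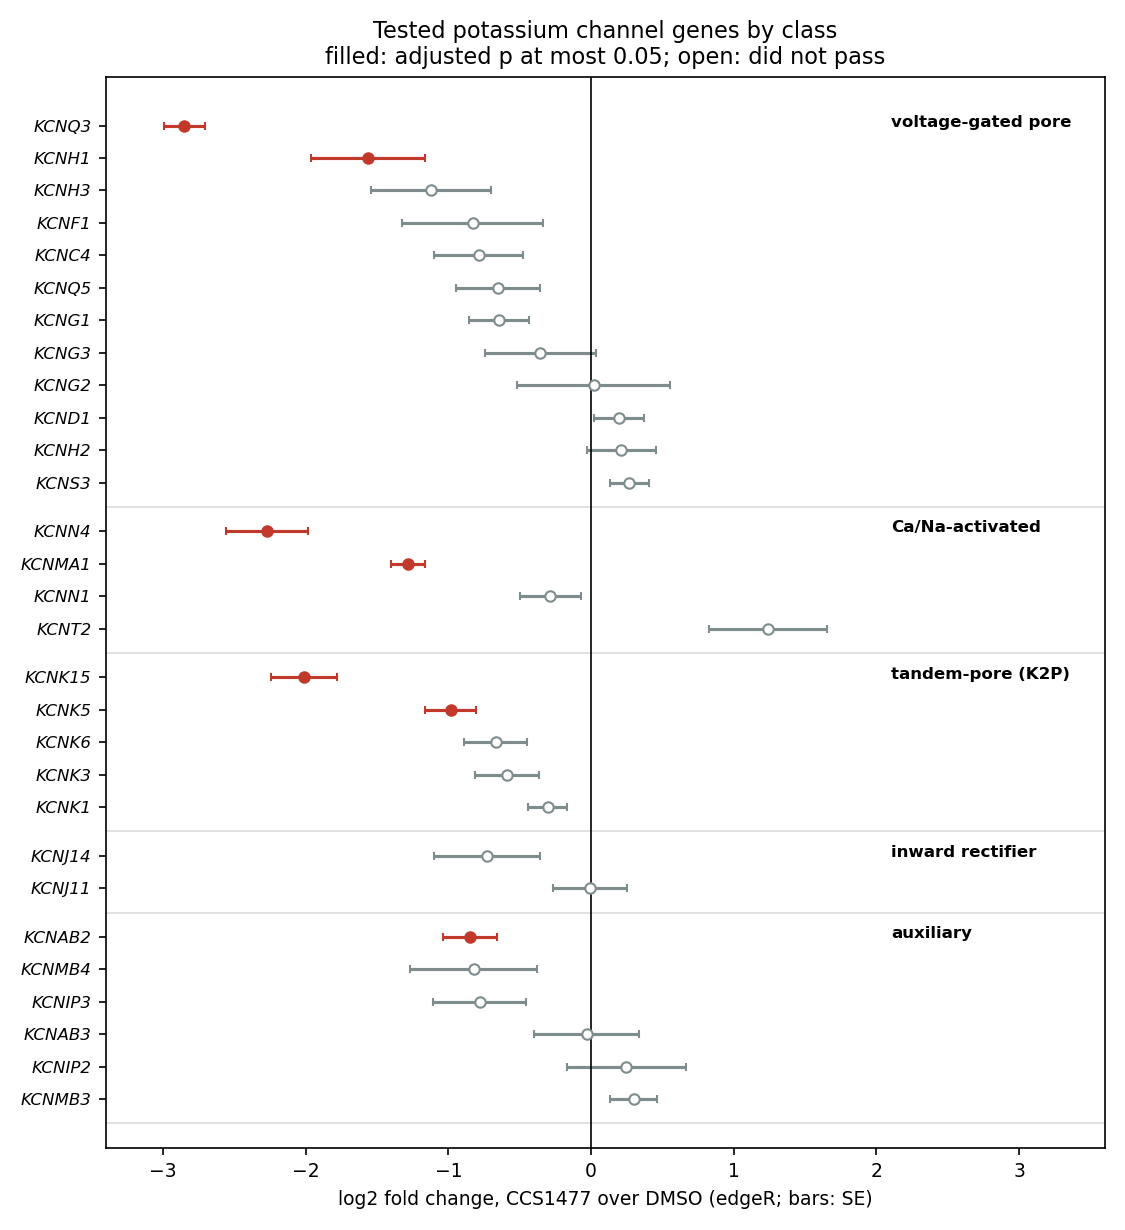
Log2 fold change of CCS1477 over DMSO with its standard error (edgeR) for 29 of the 31 tested potassium channel genes, grouped by class; filled points passed an adjusted p of 0.05 and open points did not. The 7 filled points all lie left of 0 and fall in 4 of the 5 classes, and all 5 tested tandem-pore genes lie left of 0.

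The promoter sequences of KCNN4, KCNMA1 and KCNK5 are shown because, of the pore genes lower with CCS1477 that have a sequence in the promoter table, these kept their call when any single library was left out. They are the 250 bases before the RefSeq start site on the minus strand of GRCh38.p14, at chr19:43780974-43781223, chr10:77637809-77638058 and chr6:39229476-39229725. By the gene coordinates given below, the KCNN4 and KCNMA1 stretches lie inside the gene, downstream of its annotated start. The KCNK5 stretch lies directly before the gene. Capitals mark the GC box GGGCGG or its reverse complement, where overlapping matches run together.
KCNN4: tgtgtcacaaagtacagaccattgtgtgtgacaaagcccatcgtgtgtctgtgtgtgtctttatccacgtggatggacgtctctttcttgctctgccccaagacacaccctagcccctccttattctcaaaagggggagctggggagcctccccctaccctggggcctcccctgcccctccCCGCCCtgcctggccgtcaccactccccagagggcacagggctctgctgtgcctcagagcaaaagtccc
KCNMA1: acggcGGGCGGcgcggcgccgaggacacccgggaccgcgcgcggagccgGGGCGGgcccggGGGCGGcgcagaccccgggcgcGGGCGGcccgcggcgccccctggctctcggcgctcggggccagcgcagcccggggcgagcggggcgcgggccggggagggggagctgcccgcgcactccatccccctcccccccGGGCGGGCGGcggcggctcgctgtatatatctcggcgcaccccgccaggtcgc
KCNK5: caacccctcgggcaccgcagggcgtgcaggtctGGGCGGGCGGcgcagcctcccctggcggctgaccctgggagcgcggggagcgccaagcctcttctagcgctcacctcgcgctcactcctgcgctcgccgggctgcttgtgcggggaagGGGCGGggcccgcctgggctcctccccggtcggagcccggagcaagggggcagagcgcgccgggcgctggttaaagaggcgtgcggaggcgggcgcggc
The KCNN4 stretch holds 1 GC box, KCNMA1 holds 6 and KCNK5 holds 3. Windows of 250 bases before and 50 bases from the start were found for 27 of the 38 members, and for 5 of the 9 with a call (KCNMA1, KCNN4, KCNK5, KCNAB2 and KCNH1, all lower). The GC box, on either strand, was in 4 of these 5 windows, in 15 of the 17 windows of tested members that did not pass, and in 44.4% of 27059 windows of all genes. The AP-1 letters TGANTCA were in 0 of the 5 and 0 of the 17 windows, against 7.74% of all windows. The TEAD letters GGAATG were in 0 of 5 and 2 of 17 (14.1% of all windows), TATAAA in 0 of 5 and 4 of 17 (12.1%), TGACGTCA in 0 of 5 and 1 of 17 (1.96%) and CCAAT in 1 of 5 and 7 of 17 (35.7%). The 5 windows had a median GC content of 76.0%, with a range of 60.7% to 85.7%, and the median over all windows was 58.3%. These matches describe letters in a short window and do not show binding.

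Voltage-gated pore subunits made up 14 of the tested members, of which 3 were lower and 1 was higher. KCNQ3 belongs to the KCNQ family, whose channels open near the resting potential and carry the M-current of neurons. KCNQ3 (ENSG00000184156, chromosome 8, 132120859 to 132481095, minus strand in the files' coordinates) had 8.19, 7.18 and 6.74 CPM in the 3 CCS1477 libraries, against 51.6, 59.9 and 48.3 CPM in the 3 DMSO libraries. Every CCS1477 library was far below every DMSO library. The means were 7.37 ± 0.742 CPM in CCS1477 and 53.3 ± 6.02 CPM in DMSO (SD, n = 3 each), a 7.22-fold lower level with a log2 fold change of -2.85 ± 0.14 (SE; edgeR adjusted p = 3.71e-07). From the lowest log2 fold change upwards KCNQ3 stood at rank 40 of the 14928 genes tested, and it passed in all 17 alternatives. The nearest tested genes on its sides, EFR3A and LRRC6, did not pass: EFR3A had a log2 fold change of 0.06 (adjusted p = 0.801, edgeR) and LRRC6 one of 0.05 (adjusted p = 0.951).

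Of other KCNQ genes, KCNQ5 averaged 2.85 ± 0.505 CPM in CCS1477 and 4.48 ± 1.02 CPM in DMSO without passing (log2 fold change -0.65 ± 0.29, adjusted p = 0.149, edgeR), and KCNQ1 averaged 0.663 ± 0.235 CPM in CCS1477 and 1.31 ± 0.580 CPM in DMSO and was not tested.

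KCNH1 (ENSG00000143473, chromosome 1, 210676823 to 211134165, minus strand) encodes EAG1, a channel of the brain that is also expressed in many tumours. It had 1.68, 1.04 and 1.26 CPM in CCS1477, against 5.80, 2.74 and 3.19 CPM in DMSO. The groups did not overlap, and DMSO replicate 1 was the highest library. The log2 fold change was -1.56 ± 0.40 (SE; edgeR adjusted p = 0.0192), and the call was lost without CCS1477 replicate 2 (adjusted p = 0.0835), CCS1477 replicate 3 (0.068) or DMSO replicate 1 (0.116). A gene without a symbol (ENSG00000279333) overlaps KCNH1 on the opposite strand and was lower too, with 0.112, 0.208 and 0.571 CPM in CCS1477 and 2.22, 3.08 and 2.09 CPM in DMSO (log2 fold change -3.02 ± 0.55, adjusted p = 0.00323, edgeR). The strand setting of the counting is not given in the sources used here, so reads of this pair cannot be told apart.

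KCNC4, which encodes a fast voltage-gated channel, had 3.93, 5.21 and 1.94 CPM in CCS1477 and 6.31, 7.01 and 5.89 CPM in DMSO, and its log2 fold change of -0.79 ± 0.31 did not pass (adjusted p = 0.104, edgeR).

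The other voltage-gated subunits with a mean of at least 5 CPM did not pass. KCNS3 and KCNG1 encode silent subunits, which make no channel alone and modify channels of the KCNB family. KCNS3 averaged 20.9 ± 2.31 CPM in CCS1477 and 17.3 ± 0.276 CPM in DMSO (log2 fold change 0.27 ± 0.14, adjusted p = 0.209, edgeR). KCNG1 averaged 6.84 ± 1.36 CPM in CCS1477 and 10.7 ± 1.56 CPM in DMSO, with no overlap between the groups (log2 fold change -0.65 ± 0.21, adjusted p = 0.0515, edgeR), and it passed with limma-voom, without a count filter and without DMSO replicate 3. KCND1, a channel of the fast transient A-type current, averaged 9.08 ± 0.678 CPM in CCS1477 and 7.91 ± 0.272 CPM in DMSO (log2 fold change 0.20 ± 0.18, adjusted p = 0.488, edgeR).

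**Figure D2:**
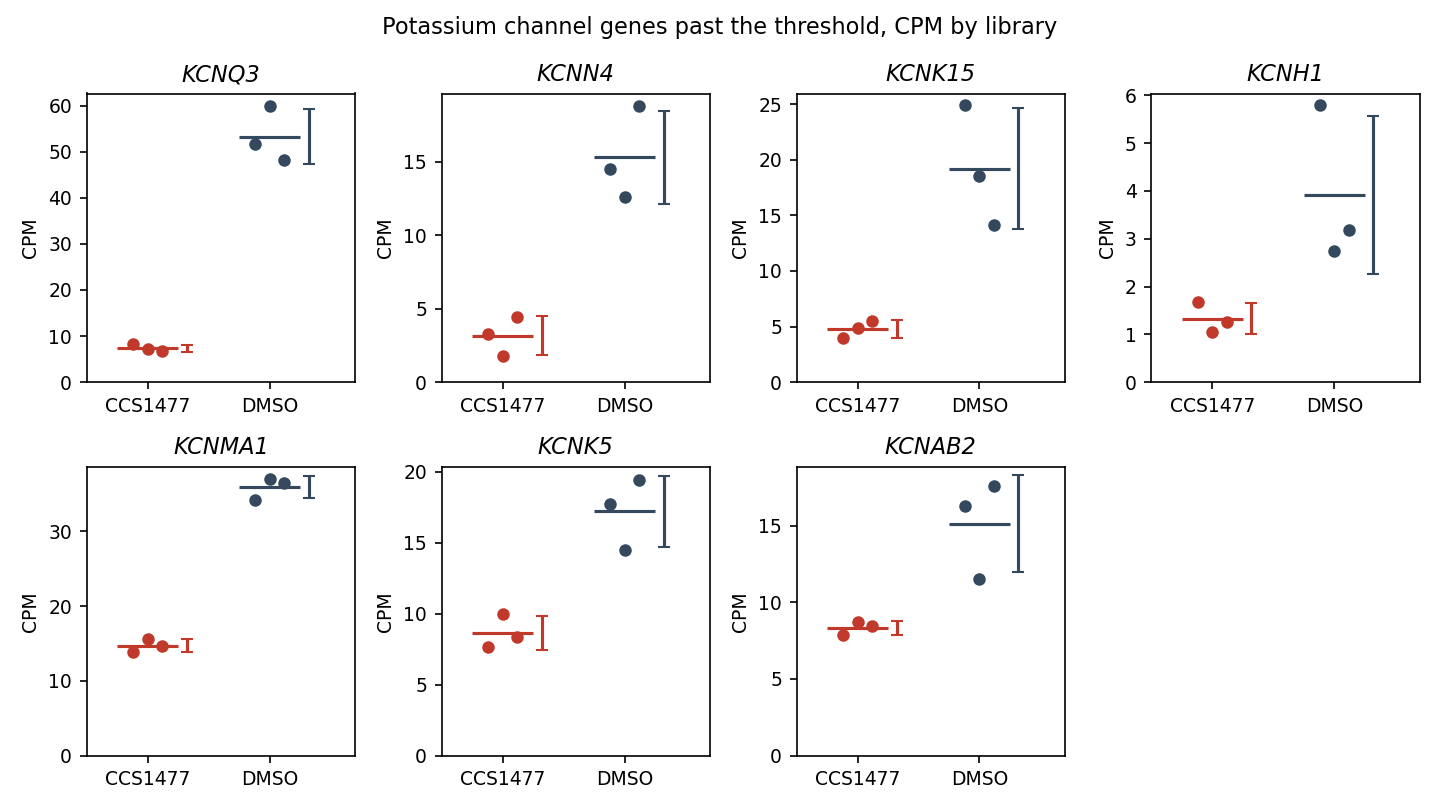
CPM in each of the 3 CCS1477 and 3 DMSO libraries (points) for 7 of the 9 potassium channel genes that passed an adjusted p of 0.05; lines are group means and bars the SD. The groups do not overlap in any panel; KCNQ3 averages 7.37 CPM in CCS1477 and 53.3 CPM in DMSO, and CCS1477 lies below DMSO in all 7 panels.

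Among the calcium- and sodium-activated channels, the 2 calcium-activated pore genes of large and intermediate conductance were lower, and the other 2 genes did not pass. KCNMA1 (ENSG00000156113, chromosome 10, 76869601 to 77638369, minus strand) encodes the pore of BK, which opens with both voltage and calcium. It had 13.9, 15.6 and 14.6 CPM in CCS1477 and 34.2, 37.0 and 36.5 CPM in DMSO. The libraries of each group lay close together, and the log2 fold change was -1.28 ± 0.12 (SE; edgeR adjusted p = 3.73e-05), a 2.44-fold lower level that passed in all 17 alternatives. KCNN4 (ENSG00000104783, chromosome 19, 43766533 to 43781257, minus strand) encodes the intermediate-conductance channel, which senses calcium through bound calmodulin and is active in epithelia and lymphocytes. It had 3.25, 1.77 and 4.46 CPM in CCS1477 and 14.5, 12.6 and 18.8 CPM in DMSO. The lowest DMSO library was well above the highest CCS1477 library, and the log2 fold change of -2.27 ± 0.29 (SE; edgeR adjusted p = 2.96e-04; 4.83-fold lower) passed in all 17 alternatives.

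KCNN1, a small-conductance calcium-activated channel, averaged 5.74 ± 0.977 CPM in CCS1477 and 7.01 ± 0.349 CPM in DMSO (log2 fold change -0.29 ± 0.21, adjusted p = 0.395, edgeR). Its sign turned on the TPM scale, to 0.31 on log2(TPM + 1), so no direction is given for it. KCNT2, a sodium-activated channel named here after its values were seen, had 3.48, 2.71 and 1.83 CPM in CCS1477 and 1.11, 1.45 and 0.737 CPM in DMSO. The groups did not overlap, but the log2 fold change of 1.24 ± 0.41 did not pass (adjusted p = 0.0579, edgeR).

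All 5 tested tandem-pore genes had a log2 fold change below 0, and 2 of them passed; over all genes tested 50.4% were below 0. The untested member of the class, KCNK13, went the other way at low counts, with 1.18 ± 0.460 CPM in CCS1477 and 0.342 ± 0.342 CPM in DMSO. Tandem-pore channels carry the background leak current. KCNK15 (ENSG00000124249, chromosome 20, 44745865 to 44752313, plus strand) encodes TASK-5, a subunit for which no current of its own is established. It had 3.93, 4.89 and 5.49 CPM in CCS1477 and 24.9, 18.6 and 14.1 CPM in DMSO. The groups were well apart although the DMSO libraries varied, and the log2 fold change of -2.01 ± 0.23 (SE; edgeR adjusted p = 1.51e-04; 4.04-fold lower) passed in all 17 alternatives. RIMS4 lies over KCNK15 on the opposite strand and was lower as well, with 20.5, 24.9 and 21.4 CPM in CCS1477 and 39.7, 44.6 and 43.1 CPM in DMSO (log2 fold change -0.93 ± 0.12, adjusted p = 3.67e-04, edgeR). Without a stated strand setting the reads of this pair cannot be told apart, and RIMS4 had the larger count but the smaller change. The neighbouring gene CCN5, 17356 bases away, was lower with a log2 fold change of -3.24 (adjusted p = 1.16e-05, edgeR).

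KCNK5 (ENSG00000164626, chromosome 6, 39188971 to 39229475, minus strand) encodes TASK-2, an epithelial channel opened by alkaline pH and involved in volume regulation. It had 7.63, 9.996 and 8.34 CPM in CCS1477 and 17.7, 14.5 and 19.4 CPM in DMSO. The groups did not overlap, and the log2 fold change was -0.98 ± 0.18 (SE; edgeR adjusted p = 0.00304). KCNK1, which encodes TWIK-1, averaged 19.7 ± 2.37 CPM in CCS1477 and 24.3 ± 1.89 CPM in DMSO and did not pass (log2 fold change -0.31 ± 0.14, adjusted p = 0.151, edgeR). KCNK6, which encodes TWIK-2, had 10.2, 5.52 and 6.86 CPM in CCS1477 and 11.8, 11.7 and 12.4 CPM in DMSO. Its groups did not overlap, but its log2 fold change of -0.67 ± 0.22 just missed the threshold (adjusted p = 0.0561, edgeR), and it passed with limma-voom, without a count filter and without CCS1477 replicate 1. KCNK3, the pH-sensitive TASK-1, averaged 4.77 ± 0.675 CPM in CCS1477 and 7.14 ± 0.879 CPM in DMSO (log2 fold change -0.59 ± 0.22, adjusted p = 0.0907, edgeR).

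Neither tested inward rectifier passed. KCNJ11, the pore of the ATP-sensitive channel, had 4.15, 4.89 and 5.71 CPM in CCS1477 and 6.05, 4.87 and 3.81 CPM in DMSO, with overlapping groups and a log2 fold change of -0.01 ± 0.26 (adjusted p = 0.985, edgeR). ABCC8 and ABCC9, which encode its sulfonylurea receptor subunits, had too few counts to be tested.

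Of the 6 tested auxiliary subunits, 1 was lower. KCNAB2 (ENSG00000069424, chromosome 1, 5990927 to 6101193, plus strand) encodes a cytosolic beta subunit of voltage-gated channels with the fold of an aldo-keto reductase. It had 7.85, 8.75 and 8.46 CPM in CCS1477 and 16.3, 11.5 and 17.6 CPM in DMSO, without overlap (log2 fold change -0.85 ± 0.19, adjusted p = 0.00985, edgeR). It overlaps NPHP4 on the opposite strand, which did not pass (log2 fold change 0.36 ± 0.15, adjusted p = 0.133, edgeR). KCNMB3 and KCNMB4 encode beta subunits of BK and did not pass, unlike its pore gene KCNMA1; whether their changes differ from that of KCNMA1 was not tested. KCNMB3 averaged 13.3 ± 1.49 CPM in CCS1477 and 10.9 ± 0.827 CPM in DMSO (log2 fold change 0.30 ± 0.16, adjusted p = 0.239, edgeR) and overlaps PIK3CA on the opposite strand. LRRFIP1P1 overlaps KCNMB3 on the same strand and did not pass either (log2 fold change 0.59 ± 0.28, adjusted p = 0.176, edgeR). How reads were divided between KCNMB3 and LRRFIP1P1 is not given in the sources used here. KCNMB4 had 2.02, 2.60 and 0.571 CPM in CCS1477 and 3.33, 3.34 and 2.58 CPM in DMSO (log2 fold change -0.82 ± 0.45, adjusted p = 0.233, edgeR). The other 8 tested members (KCNF1, KCNG2, KCNG3, KCNH2, KCNH3, KCNIP2, KCNIP3 and KCNJ14) had log2 fold changes of -1.12 to 0.25 and did not pass (adjusted p = 0.0854 to 0.988, edgeR).

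Levels between genes were compared on the deposited TPM, which is per transcript length. In CCS1477 the highest members were KCNK1 with 14.8 ± 2.02 TPM, KCNS3 with 13.5 ± 1.498 TPM and KCNN1 with 12.2 ± 0.624 TPM, and neighbours in this order differed by less than the larger SD of the pair. In DMSO they were KCNMA1 with 20.9 ± 1.63 TPM, KCNK1 with 17.8 ± 2.76 TPM and KCNAB2 with 15.1 ± 8.11 TPM, where KCNK1 and KCNAB2 did not differ beyond their spread. By its mean KCNMA1 stood at rank 4 in CCS1477, with 9.54 ± 1.57 TPM, and at rank 1 in DMSO, although KCNK1 was above it in DMSO replicate 1 (19.93 against 19.1 TPM) and KCNAB2 in DMSO replicate 3 (23.45 against 22.3 TPM). KCNQ3, with its long transcript, had 1.13 ± 0.210 TPM in CCS1477 (rank 23 of 38) and 7.56 ± 1.51 TPM in DMSO (rank 9).

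Summed over the 38 members, TPM was 130.8, 123 and 119.9 in CCS1477 and 177, 160 and 167 in DMSO (124.7 ± 5.55 TPM in CCS1477 and 167.9 ± 8.40 TPM in DMSO). The groups did not overlap. The calcium- and sodium-activated channels summed to 26.1 ± 1.38 TPM in CCS1477 and 44.5 ± 2.53 TPM in DMSO, and the tandem-pore channels to 25.7 ± 1.64 TPM in CCS1477 and 41.1 ± 7.40 TPM in DMSO, in both cases without overlap. The voltage-gated subunits summed to 42.5 ± 0.284 TPM in CCS1477 and 47.5 ± 5.62 TPM in DMSO, with overlap. The auxiliary subunits summed to 24.6 ± 1.90 TPM in CCS1477 and 30.2 ± 10.1 TPM in DMSO, with overlap, and the inward rectifiers to 5.69 ± 2.25 TPM in CCS1477 and 4.65 ± 0.332 TPM in DMSO, with overlap. Voltage-gated subunits made up 34.1 ± 1.53% of the members' TPM in CCS1477 and 28.3 ± 3.46% in DMSO, and calcium- and sodium-activated channels 21.0 ± 1.46% in CCS1477 and 26.5 ± 2.18% in DMSO. These sums describe the libraries and were not tested.

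**Figure D3:**
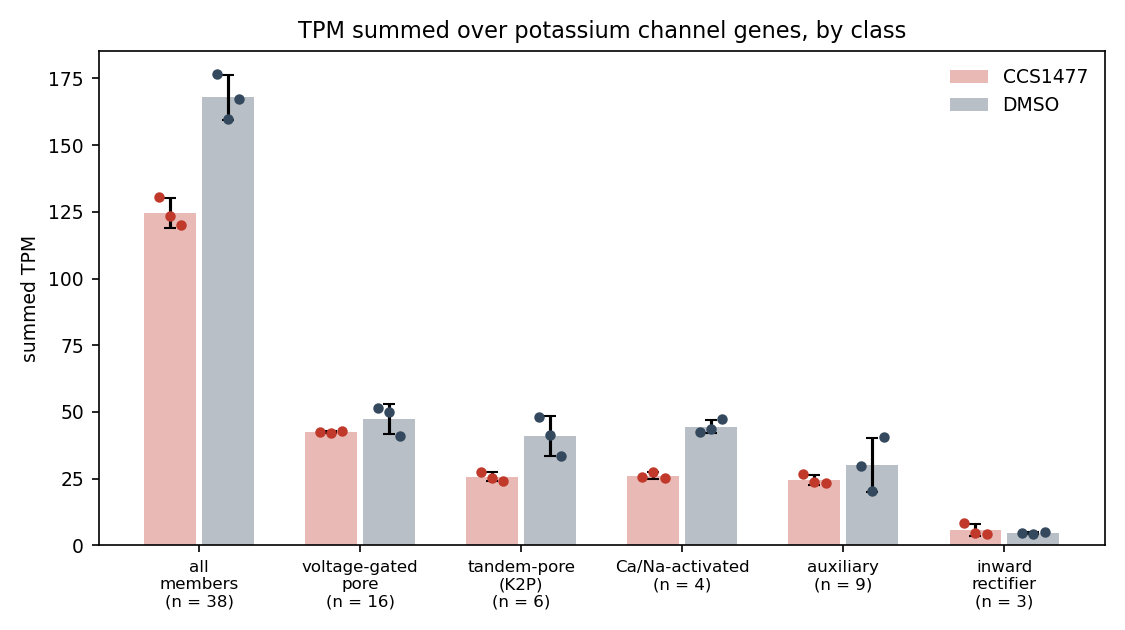
TPM summed over all 38 potassium channel genes and over each class, for the 3 CCS1477 and 3 DMSO libraries (points), with group means (bars) and SD (error bars). The sums over all members average 124.7 TPM in CCS1477 and 167.9 TPM in DMSO, and the calcium- and sodium-activated and tandem-pore classes do not overlap between the groups.

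The deposited count and TPM of a gene together give the transcript length the quantification assigned to it, which was read here as a description of the isoform mix. It was checked on 351 genes with a single annotated transcript of at least 2000 bases and at least 50 counts in every library. There the length so obtained had a 5% to 95% range of about 0.85 to 1.11 of the annotated length. Shorter transcripts and lower counts, as for several members below, were not covered by this check. KCNK5 and KCNK15, with 1 annotated transcript each, had nearly constant lengths of 3775 to 3786 bases and 2405 to 2415 bases over the 6 libraries. Of the 30 tested members with a value in every library, 6 had shorter lengths in all CCS1477 libraries than in any DMSO library (KCNAB3, KCNG1, KCNJ14, KCNMB3, KCNN1 and KCNT2) and 0 had longer ones. The background was 8.18% of 14823 genes shorter and 4.47% longer.

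KCNN1 had an implied length of 632, 593 and 801 bases in CCS1477 and 899, 1113 and 989 bases in DMSO. KCNG1 had 1353, 1254 and 1329 bases in CCS1477 and 1848, 1870 and 1523 bases in DMSO. Since the length is the count over the TPM, a shorter length in CCS1477 raises the ratio of CCS1477 to DMSO in TPM above that in counts by construction. For KCNG1 the log2 fold change was -0.65 on counts and -0.16 on log2(TPM + 1). KCNAB3, a beta subunit like KCNAB2, had 989, 950 and 823 bases in CCS1477 and 2073, 1599 and 1177 bases in DMSO, while its count gave a log2 fold change of -0.03 ± 0.37 (adjusted p = 0.968, edgeR). KCNAB2 varied within groups, from 957 to 2288 bases over the libraries, and its TPM varied accordingly; it did not pass on either TPM scale. Estimated isoform shares at these counts carry an error that the files do not give, and these differences were not tested.

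**Figure D4:**
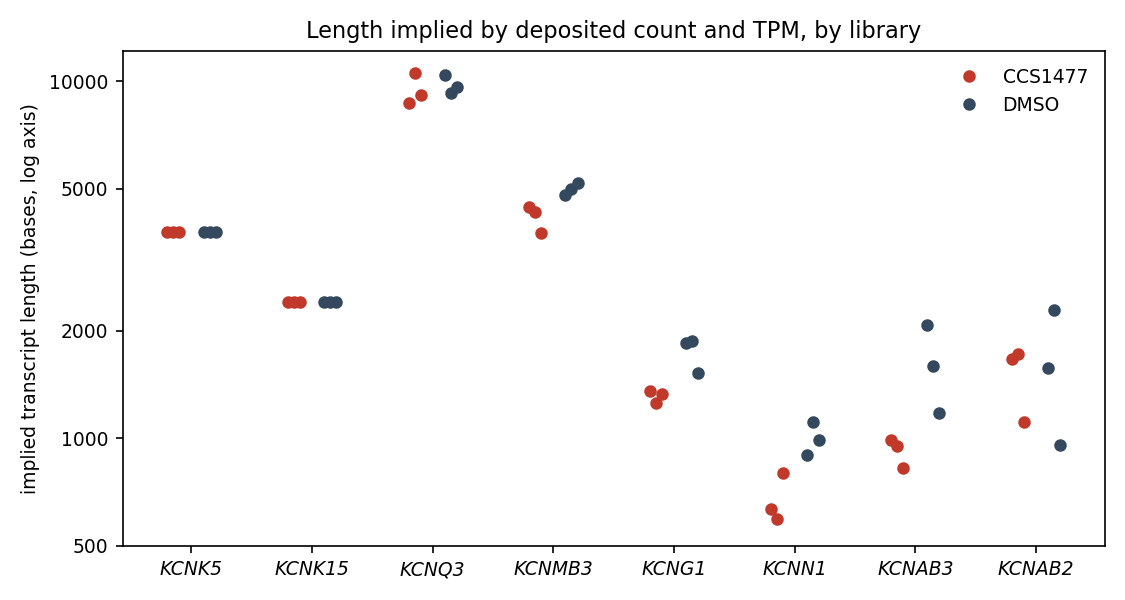
Transcript length implied by the deposited count and TPM (bases, log axis) in each of the 3 CCS1477 and 3 DMSO libraries, for 8 potassium channel genes chosen after their values were seen. KCNK5 and KCNK15 are constant, KCNMB3, KCNG1, KCNN1 and KCNAB3 are shorter in every CCS1477 library, and KCNAB2 ranges from 957 to 2288 bases within the groups.

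A list of 52 genes covered proteins that work with potassium channels and the pumps and cotransporters that build the potassium gradient. Of these, 28 were tested, 6 were higher (background 7.23%), 3 were lower and 19 did not pass. Their log2 fold changes had a median of -0.08. The share lower, 10.7%, equalled the background of 10.7%, and none of the 3 lower calls passed at an adjusted p of 0.01 or on either TPM scale. SLC12A2, which encodes NKCC1, the cotransporter that brings sodium, potassium and chloride into the cell, had 59.7, 72.4 and 61.1 CPM in CCS1477 and 28.99, 29.5 and 25.5 CPM in DMSO. Every CCS1477 library was far above every DMSO library, and the log2 fold change of 1.198 ± 0.12 (SE; edgeR adjusted p = 4.60e-05) passed in all 17 alternatives. Among the potassium-chloride cotransporters, which carry both ions out, SLC12A4 (KCC1) was higher, with 87.0 ± 4.72 CPM in CCS1477 and 54.2 ± 1.92 CPM in DMSO (log2 fold change 0.68 ± 0.09, adjusted p = 4.89e-04, edgeR). SLC12A7 (KCC4) was lower, with 63.9 ± 4.64 CPM in CCS1477 and 85.8 ± 5.91 CPM in DMSO (log2 fold change -0.42 ± 0.10, adjusted p = 0.0122, edgeR), a call lost without CCS1477 replicate 2 or DMSO replicate 1. On log2(TPM + 1) with limma, 3 of the 6 higher calls (SLC12A2, TMEM175 and HCN2) passed.

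HCN2 and HCN3 encode cation channels opened by hyperpolarisation, relatives of the voltage-gated potassium channels, and both were higher. HCN2 had 6.17, 6.66 and 9.37 CPM in CCS1477 and 2.90, 2.65 and 1.72 CPM in DMSO (log2 fold change 1.58 ± 0.28, adjusted p = 0.00296, edgeR). HCN3 averaged 32.4 ± 1.53 CPM in CCS1477 and 20.1 ± 1.37 CPM in DMSO (log2 fold change 0.69 ± 0.12, adjusted p = 0.00246, edgeR). TMEM175, a potassium-permeable channel of endosomes and lysosomes, was also higher, with 22.2, 25.7 and 30.9 CPM in CCS1477 and 11.3, 12.3 and 14.7 CPM in DMSO (log2 fold change 1.05 ± 0.16, adjusted p = 0.00124, edgeR). In all 3 genes the groups did not overlap.

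Calmodulin is the calcium sensor of the KCNN channels. CALM3, which encodes it, was lower, with 257 ± 7.78 CPM in CCS1477 and 331 ± 38.0 CPM in DMSO (log2 fold change -0.36 ± 0.10, adjusted p = 0.0225, edgeR), and CALM2 did not pass (log2 fold change -0.11 ± 0.09, adjusted p = 0.423, edgeR). The CALM3 call was lost without DMSO replicate 1 or any 1 of the CCS1477 libraries. FXYD6, a regulator of the sodium-potassium pump, was lower, with 5.53 ± 0.822 CPM in CCS1477 and 10.4 ± 2.05 CPM in DMSO (log2 fold change -0.91 ± 0.22, adjusted p = 0.0130, edgeR; the call was lost without CCS1477 replicate 2). SLC12A7, FXYD6, CALM2 and CALM3 were named after their values were seen.

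**Figure D5:**
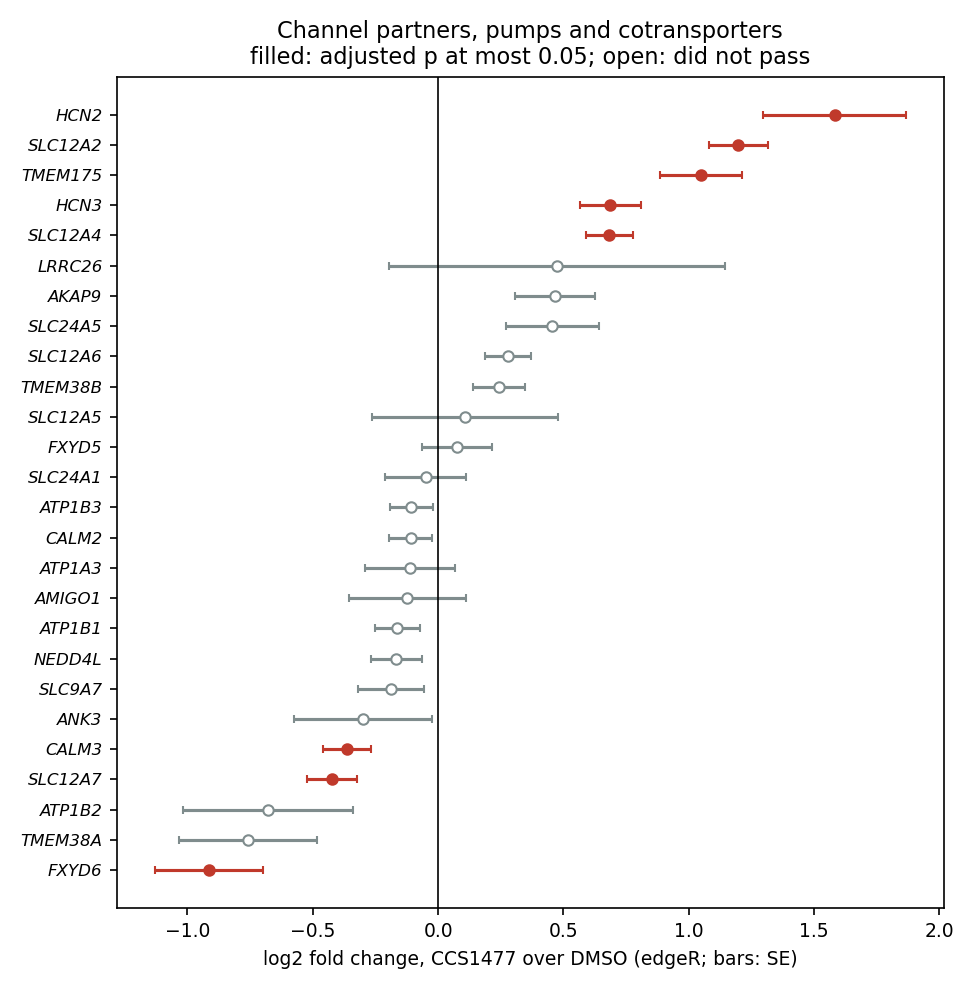
Log2 fold change of CCS1477 over DMSO with its standard error (edgeR) for 26 of the 28 tested channel partners, pumps and cotransporters; filled points passed an adjusted p of 0.05 and open points did not. The 5 filled points right of 0 are HCN2, SLC12A2, TMEM175, HCN3 and SLC12A4, and the 3 left of 0 are FXYD6, SLC12A7 and CALM3.

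The tested genes next to the called members mostly did not pass. Of the 18 nearest tested genes on either side of the 9 called members, 2 were lower, among them CCN5 beside KCNK15, 1 was higher (SAYSD1 beside KCNK5) and 15 did not pass, against the background of 17.9% called. SAYSD1, 73785 bases from KCNK5, had a log2 fold change of 0.65 (adjusted p = 0.0170, edgeR), opposite in sign to KCNK5.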

How the data were processed

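Poly-A RNA-seq of 6 DU145 libraries was analysed. The authors deposited estimated counts per gene, not normalized, with fractional values for 10.2% to 10.7% of the genes with a count in a library, and a second table of TPM. Per the submitters' processing notes, Trimmomatic 0.39 was used. For aligner, quantifier, genome build and strandedness, the sources used here give nothing. Among 58516 gene IDs shared with GENCODE 29 (GRCh38), 80.0% had matching coordinates, and 17 of the 38 members did, so positions are as the files give them.

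Estimated counts were rounded. Genes were kept by filterByExpr (minimum count 10, minimum total 15), scaled by TMM and compared with the quasi-likelihood test of edgeR 4.0.16 in R 4.3.3, with Benjamini-Hochberg adjustment over 14928 genes at 0.05 and no covariates. The steps were tested on simulated data. CPM uses TMM-scaled library sizes; standard errors come from the test statistic. Groups came from the sample titles. Alternatives used limma 3.58.1, DESeq2 1.42.0, TPM with pseudocounts of 1 and 0.1, other filters and thresholds, a replicate block and leaving out each library. Implied lengths are count over TPM, set on genes with 1 GENCODE 29 transcript of at least 2000 bases and at least 50 counts in every library. Promoter windows are RefSeq (GRCh38.p14), the farthest upstream per gene. Figures were drawn with matplotlib 3.10.9.

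The members, the list of partners and the markers were chosen with earlier results of these data known. Members that passed, members averaging at least 5 CPM, and up to 6 partners with the smallest adjusted p are named by rule; single values of other members are given where they belong to the family or complex of a named one and were chosen after they were seen. Some genes, among them members with a call, are included in the counts but not reported here.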

Additional observations from a re-analysis of the deposited data

How the results depend on the processing

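Of the named genes' values, 2 reversed: KCNN1 had a log2 fold change of 0.33 on log2(TPM + 0.1) and 0.31 on log2(TPM + 1). The lower calls among the potassium channel genes numbered 4 on both TPM scales with limma (KCNAB2, KCNH1 and KCNK5 among those lost; background 2.75% and 2.86% lower), and 6 to 9 when a library was left out. The higher calls numbered 2 with library size only and without a filter, and 0 on both TPM scales. The members' median log2 fold change was -0.51 on log2(TPM + 0.1), -0.29 on log2(TPM + 1) and -0.68 to -0.54 with a library left out. DESeq2 and limma-voom gave 8 and 10 lower calls (background 10.3% and 10.6%). Over all genes, the higher and lower calls numbered 380 and 852 at an adjusted p of 0.01, 280 and 410 on log2(TPM + 0.1), 293 and 427 on log2(TPM + 1), and 369 and 846 against a fold of 1.2; with a library left out they ran from 487 to 1311 higher and 925 to 1772 lower. Partner genes gave 3 higher calls on log2(TPM + 1) and 5 to 8 with a library left out, and 0 lower calls at an adjusted p of 0.01 and on both TPM scales, 1 against a fold of 1.2 and 0 to 4 with a library left out. The causes of these differences were not tested.

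Same-numbered samples did not deviate together (correlations -0.09, -0.20 and -0.01), which gave no sign that the numbers pair them. With deviations taken from means of 3 libraries, such correlations cannot settle whether the samples were paired. Between differently numbered samples of the groups the correlations ran from -0.19 to 0.27, and whether these share a source was not tested. With the replicate block, 799 genes were higher and 1306 lower, and the potassium channel genes gave the same 8 lower calls and 1 higher call. Low counts limit KCNH1 and the members not tested.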
